A study of Mus musculus with 24 samples.

Results

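Caprin2, Tdrd7, Celf1, Rbm24 and Stau1 encode RNA-binding proteins of the lens. They were taken by symbol as 5 of the 24415 genes in the count table, and all 5 were detected in every library and entered every test. The study measured mRNA in cortical fiber cells and epithelia of C57BL/6 mouse lenses under 3 conditions, with 4 libraries in each of the 6 groups. LEGSKO+BSO lenses came from LEGSKO mice treated with buthionine sulfoximine (BSO), LEGSKO lenses from untreated mice of that line, and wild-type (WT) lenses from untreated mice without the allele. The LEGSKO line is known to lack Gclc in the lens, which encodes the catalytic subunit of the enzyme that starts glutathione synthesis, and BSO inhibits that enzyme. The series calls LEGSKO lenses mildly and LEGSKO+BSO lenses severely deficient in glutathione. No group received BSO without the LEGSKO allele, so a BSO effect on WT lenses was not measured. Ages, the driver of the deletion and whether each library came from its own animal are not given in the labels used here, so p-values rest on the spread between libraries, part of which may be technical.

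A lens is a sheet of epithelial cells over a mass of fiber cells, which elongate, fill with crystallins and lose their nuclei. Once transcription ends, a fiber cell relies on the mRNAs it already holds, and RNA-binding proteins decide which of these are spliced, stored, translated or degraded, partly in cytoplasmic RNA granules. TDRD7 is a Tudor domain protein of such granules whose loss causes cataract in mice and humans. STAU1 binds double-stranded RNA and was found with TDRD7 granules in lens fibers. CAPRIN2 is an RNA-binding relative of the stress granule protein CAPRIN1, and its deletion in the mouse lens disturbs lens development. CELF1 controls splicing, stability and translation, and its deletion causes cataract in mice. RBM24 stabilizes or splices target mRNAs, Sox2 mRNA in the developing eye among them.

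Caprin2 was the only member called between conditions within a tissue, and its promoter is therefore printed here. The gene lies on the minus strand of chromosome 6 from 148842492 to 148896257 (GRCm38). The 250 bases upstream of its RefSeq start site (GRCm38.p6, chr6:148896238-148896487, minus strand) are given 5′ to 3′. This start site comes from a RefSeq promoter table and lies inside the gene span above, so the 3′ end of the window, with the copy nearest to the start site, falls within that span. Capitals mark each copy of CCGGAA, a core letter string bound by ETS family factors.
Caprin2: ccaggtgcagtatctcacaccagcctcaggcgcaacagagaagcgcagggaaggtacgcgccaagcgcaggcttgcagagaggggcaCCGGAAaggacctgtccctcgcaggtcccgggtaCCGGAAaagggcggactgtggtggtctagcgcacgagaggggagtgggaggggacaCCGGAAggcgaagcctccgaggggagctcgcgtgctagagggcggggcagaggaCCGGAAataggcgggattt
The window held 4 copies on this strand, starting 163, 129, 73 and 19 bases before the start site, and its GC content was 65.6%. Of 32851 RefSeq mouse promoter windows of this length, searched on both strands, 12.03% held at least 1 copy and 0.0974% at least 4. The string was chosen after the sequence had been read, so these shares are a description only. None of the windows of the other members (1 for Celf1, 1 for Rbm24, 2 for Stau1 and 3 for Tdrd7), which also reach into the gene spans, held it. All 3 windows of Tdrd7, and that of Stau1 from 166964718 to 166964967, lie wholly inside the spans. Bases upstream of the Tdrd7 span were thus not searched. The antioxidant response element core TGACNNNGC was in 10.2% of all windows, and the heat shock element core GAANNTTC in 6.69%, again on both strands. Neither string was in a window of any member.

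The other genes lie on chromosome 4 from 45965027 to 46034766 on the plus strand (Tdrd7), on chromosome 2 from 90940259 to 91019497 on the plus strand (Celf1), on chromosome 13 from 46418102 to 46431099 on the plus strand (Rbm24) and on chromosome 2 from 166947549 to 166996315 on the minus strand (Stau1), all in GRCm38. In the RefSeq table the lncRNA gene Gm52728 lies inside the span of Tdrd7, from 45992779 to 45998817. An exon of Tdrd7 lies within that span, and the strand setting of the counting is not given in the sources used here. Whether exons of the pair overlap was not tested. The smallest raw count of a member in any library was 683 for Stau1, 805 for Caprin2, 1335 for Rbm24, 5305 for Tdrd7 and 14043 for Celf1.

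Total counts were 19.3 to 46.6 M per library, and LEGSKO+BSO fibers were the deepest group at 39.0 to 46.6 M. The library WT fibers 1 stood apart. Crystallins took 50.1% of its counts, against 27.6 to 34.3% in the other 11 fiber libraries, and the comparisons of fibers with WT were repeated without it. The tissue labels fit the markers: the 16 lens fiber markers summed to 177912 to 415861 counts per 1000000 scaled counts (CPM) in fibers and to 29266 to 56951 CPM in epithelia. These sums were scaled within each tissue, so the tissues are not on a common scale. With scaling by library size alone, 15 of the 16 were called higher and 1 lower in WT fibers than in WT epithelia. Gclc ranged from 69.3 to 79.3 CPM in LEGSKO+BSO fibers, from 66.9 to 81.2 in LEGSKO fibers and from 70.4 to 135 in WT fibers. In epithelia it ranged from 63.6 to 108 CPM in LEGSKO+BSO, from 44.6 to 70.5 in LEGSKO and from 66.6 to 95.9 in WT. The ranges overlapped in every comparison, and a whole-gene count does not check a deletion of part of a gene.

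Caprin2 mRNA was lower in glutathione-deficient fibers, by 1.76-fold in LEGSKO+BSO and by 1.501-fold in LEGSKO relative to WT. Its level was 119, 129, 105 and 108 CPM in the LEGSKO+BSO fiber libraries 1 to 4. It was 140, 123, 135 and 142 CPM in LEGSKO fibers and 245, 189, 193 and 184 CPM in WT fibers. All 8 deficient libraries lay below all 4 WT libraries. The log2 fold change against WT was -0.81 ± 0.10 (SE) in LEGSKO+BSO fibers (adjusted p = 0.0002848, edgeR's quasi-likelihood test) and -0.59 ± 0.10 in LEGSKO fibers (adjusted p = 0.006102). By p-value Caprin2 ranked 18 among 13436 genes in LEGSKO+BSO and 40 in LEGSKO. The 2 comparisons share the WT libraries. Caprin2 was 1 of 5 members called in each, where 5.52% of all genes were called in LEGSKO+BSO and 1.64% in LEGSKO. Groups with Caprin2's pattern, every deficient library below every WT library, were found for 6.8% of genes in LEGSKO+BSO and 4.14% in LEGSKO.

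Both fiber calls held without WT fibers 1, the highest Caprin2 library: the log2 fold change was then -0.71 ± 0.07 in LEGSKO+BSO (adjusted p = 1.758e-05) and -0.49 ± 0.07 in LEGSKO (adjusted p = 0.000881). With library-size scaling in place of TMM the LEGSKO call was lost (log2 -0.48, adjusted p = 0.1335) and the LEGSKO+BSO call held (-0.63, adjusted p = 0.01366), with the median of all genes at 0.06 and 0.14. Across the 12 fiber libraries Caprin2 and the summed fiber markers had a Pearson r of 0.57 on the log2 scale, and without WT fibers 1 it was -0.05 over 11 libraries. The fiber markers summed to 177912 to 200660 CPM in LEGSKO+BSO fibers, 187318 to 242110 in LEGSKO fibers and 187895 to 415861 in WT fibers, and no marker of the 16 was called in either comparison. Their median log2 fold change was -0.31 in LEGSKO+BSO and -0.19 in LEGSKO, and 0.01 and 0.10 without WT fibers 1, when 1 was called, higher in LEGSKO. The 13 epithelial markers summed to 2489 to 2552 CPM in LEGSKO+BSO, 2305 to 2575 in LEGSKO and 2432 to 2700 in WT fibers, and 1 of them, Tfap2a, was called higher in LEGSKO. Npnt and Abcg2 of this list were called, without WT fibers 1, higher in both deficient groups too. The sum of the muscle and stroma list did move with the groups, though 3 to 5 of its 8 markers were at 0 in each fiber library. It was 590 to 725 CPM in LEGSKO+BSO, 625 to 740 in LEGSKO and 486 to 557 in WT fibers. Among all genes, 7.72% in LEGSKO+BSO and 4.54% in LEGSKO had every deficient library above every WT library. Without WT fibers 1, 2 of the 8 entered the test and 1, Acta2, was called. Acta2, a smooth muscle actin gene, was the marker called in both comparisons, whereas the stromal markers Dcn and Lum were at 0 in all 12 fiber libraries. The 10 immune markers summed to 3.33 to 5.06 CPM in LEGSKO+BSO, 0.754 to 1.43 in LEGSKO and 0.825 to 1.67 in WT fibers, with Lyz2, a macrophage lysozyme gene, called higher in LEGSKO+BSO and the T cell marker Cd3e at 0 throughout. Without WT fibers 1, 3 of the 10 were tested. Their median log2 fold change in LEGSKO+BSO against WT was 0.07, and Lyz2 was at 2.89. The 12 retinal markers summed to 13.2 to 15.1 CPM in LEGSKO+BSO, 13.3 to 49.6 in LEGSKO and 9.90 to 14.5 in WT fibers, with the photoreceptor gene Pde6b called higher in LEGSKO. The part of these markers in the Caprin2 result was not tested. In bulk samples such as these, fewer cells of a type and less RNA per cell cannot be told apart.

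**Figure D1:**
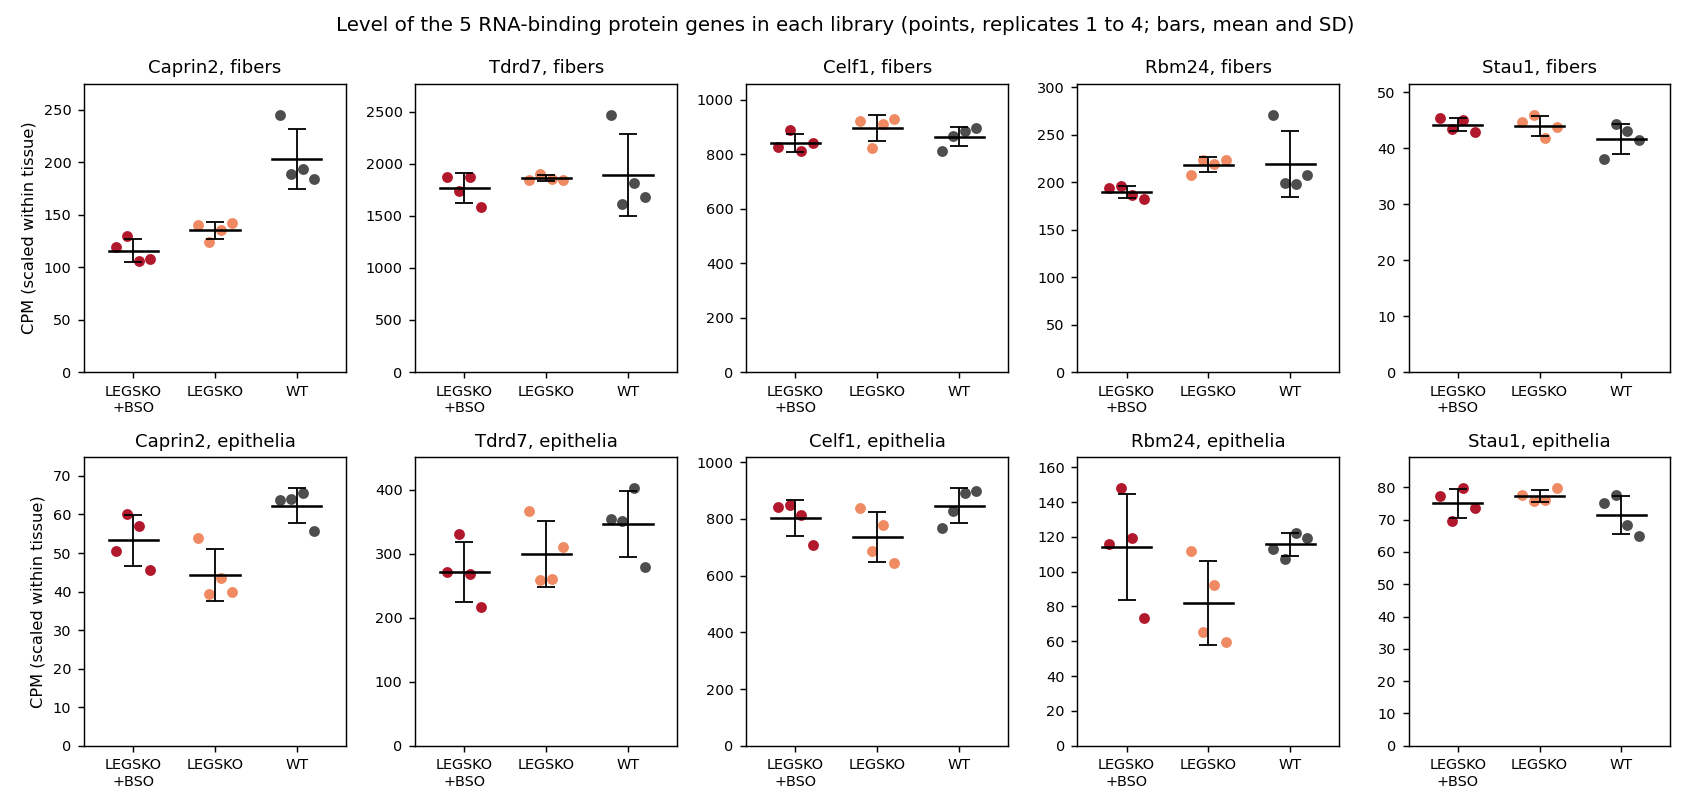
Levels of the 5 genes in CPM (linear axes from 0, scaled within each tissue), with fibers in the upper row and epithelia in the lower row. Points are libraries 1 to 4, horizontal lines are means and bars are SD (n = 4). Caprin2 in fibers is the panel in which all 8 deficient libraries, 105 to 142 CPM, lie below the 4 WT libraries, 184 to 245 CPM.

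The other granule proteins did not pass the test in fibers. Tdrd7 was at 1876, 1735, 1875 and 1580 CPM in LEGSKO+BSO fibers, at 1847, 1905, 1853 and 1845 CPM in LEGSKO fibers and at 2472, 1613, 1815 and 1679 CPM in WT fibers. The groups overlapped, and the WT spread came from library 1, the library with the highest crystallin share. The log2 fold change was -0.10 (95% interval -0.35 to 0.15) in LEGSKO+BSO and -0.02 (-0.27 to 0.23) in LEGSKO, so a change of Tdrd7 as large as that of Caprin2 lay outside both intervals. Without WT fibers 1 the signs turned, to 0.05 and 0.12, with no call (adjusted p = 0.7369 and 0.3949). Stau1 was at 45.3, 43.4, 45.1 and 43.0 CPM in LEGSKO+BSO fibers, at 44.6, 46.0, 41.8 and 43.7 CPM in LEGSKO fibers and at 38.0, 44.2, 43.0 and 41.5 CPM in WT fibers. Its log2 fold change was 0.08 in both comparisons, with intervals of -0.05 to 0.22 in LEGSKO+BSO and -0.06 to 0.21 in LEGSKO.

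Celf1 and Rbm24, the splicing and stability regulators, also missed the threshold in fibers. Celf1 was at 824, 887, 812 and 840 CPM in LEGSKO+BSO fibers, at 920, 823, 911 and 929 CPM in LEGSKO fibers and at 813, 866, 883 and 895 CPM in WT fibers. These groups overlapped, with log2 fold changes against WT of -0.04 (-0.19 to 0.11) in LEGSKO+BSO and 0.05 (-0.10 to 0.20) in LEGSKO. Rbm24 was at 194, 196, 187 and 183 CPM in LEGSKO+BSO fibers, at 207, 224, 219 and 224 CPM in LEGSKO fibers and at 271, 199, 198 and 208 CPM in WT fibers. Its 4 LEGSKO+BSO libraries lay below all 4 WT libraries, which 6.8% of all genes did too. The log2 fold change of Rbm24 in LEGSKO+BSO against WT was -0.20 ± 0.09 (adjusted p = 0.1988), and without WT fibers 1 it was -0.09 ± 0.06 (adjusted p = 0.413). In LEGSKO against WT its log2 fold change was -0.00 (-0.19 to 0.19), and 0.11 without WT fibers 1.

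No member passed the threshold between LEGSKO+BSO and LEGSKO fibers. Caprin2 was 1.17-fold lower in LEGSKO+BSO than in LEGSKO fibers (log2 -0.23 ± 0.09, interval -0.43 to -0.02, adjusted p = 0.4175), with libraries of the groups overlapping. Rbm24 was 1.15-fold lower (log2 -0.20 ± 0.09, adjusted p = 0.4417), and its groups did not overlap, a pattern found with that direction for 4.21% of genes. The comparison called 4 of 13436 genes, 0.0298%, although 1412 had an unadjusted p below 0.05, and DESeq2 called 72. The intervals of Tdrd7 (-0.33 to 0.17), Celf1 (-0.24 to 0.06) and Stau1 (-0.13 to 0.14) included no change.

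In epithelia Caprin2 was lowest in LEGSKO, 1.41-fold below WT, and the call was close to the threshold. Its level was 50.6, 60.1, 56.9 and 45.5 CPM in LEGSKO+BSO epithelia, 54.0, 39.4, 43.5 and 39.9 CPM in LEGSKO epithelia and 63.9, 64.0, 65.7 and 55.7 CPM in WT epithelia. The 4 LEGSKO libraries lay below the 4 WT libraries, the nearest pair at 54.0 and 55.7 CPM, whereas the LEGSKO+BSO libraries overlapped both other groups. The log2 fold change in LEGSKO against WT was -0.50 ± 0.11 (adjusted p = 0.04195). Caprin2 was the 1 member called, where 0.842% of all genes were called and 3.68% had LEGSKO libraries that were all below WT. Without any 1 of 8 of the 12 epithelial libraries, LEGSKO+BSO libraries included, the adjusted p was between 0.05166 and 0.1371, and the log2 fold change stayed between -0.61 and -0.44 whichever library was left out. In LEGSKO+BSO against WT the log2 fold change of Caprin2 was -0.23 ± 0.11 (interval -0.45 to -0.00, adjusted p = 0.3294), and no member was called beside 1.17% of all genes.

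Rbm24 and Tdrd7 varied most among libraries in both deficient groups of epithelia, whereas in WT epithelia Rbm24 varied least. Tdrd7 was at 271, 331, 269 and 216 CPM in LEGSKO+BSO epithelia, at 368, 260, 260 and 310 CPM in LEGSKO epithelia and at 354, 351, 403 and 279 CPM in WT epithelia. The ranges overlapped, and the log2 fold change against WT was -0.35 (-0.65 to -0.05, adjusted p = 0.2543) in LEGSKO+BSO and -0.21 (-0.51 to 0.09, adjusted p = 0.5261) in LEGSKO. Rbm24 was at 116, 148, 119 and 73.6 CPM in LEGSKO+BSO epithelia, at 112, 65.4, 92.1 and 59.8 CPM in LEGSKO epithelia and at 113, 107, 122 and 120 CPM in WT epithelia. Its coefficient of variation was 26.8% in LEGSKO+BSO, 29.3% in LEGSKO and 5.78% in WT, and that of Tdrd7 was 17.2%, 17.1% and 14.7%. The log2 fold change of Rbm24 was -0.02 (-0.43 to 0.39) in LEGSKO+BSO and -0.49 ± 0.20 in LEGSKO (-0.91 to -0.08, adjusted p = 0.2638), so it had the same size as that of Caprin2 in LEGSKO with a wider error.

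Celf1 and Stau1 had overlapping groups in epithelia. Celf1 was at 842, 850, 814 and 710 CPM in LEGSKO+BSO epithelia, at 838, 688, 777 and 644 CPM in LEGSKO epithelia and at 769, 827, 893 and 899 CPM in WT epithelia. Stau1 was at 77.4, 69.5, 79.7 and 73.7 CPM in LEGSKO+BSO epithelia, at 77.7, 75.9, 76.1 and 79.7 CPM in LEGSKO epithelia and at 75.0, 77.8, 68.4 and 64.9 CPM in WT epithelia. Against WT the log2 fold change of Celf1 was -0.08 (-0.27 to 0.12) in LEGSKO+BSO and -0.20 (-0.40 to -0.01, adjusted p = 0.3343) in LEGSKO. That of Stau1 was 0.07 (-0.08 to 0.21) in LEGSKO+BSO and 0.11 (-0.03 to 0.26) in LEGSKO. LEGSKO+BSO against LEGSKO epithelia called no member and 0.722% of all genes. The largest differences of members there were 0.47 ± 0.20 for Rbm24 (adjusted p = 0.2079) and 0.27 ± 0.11 for Caprin2 (adjusted p = 0.1963), both higher with BSO.

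**Figure D2:**
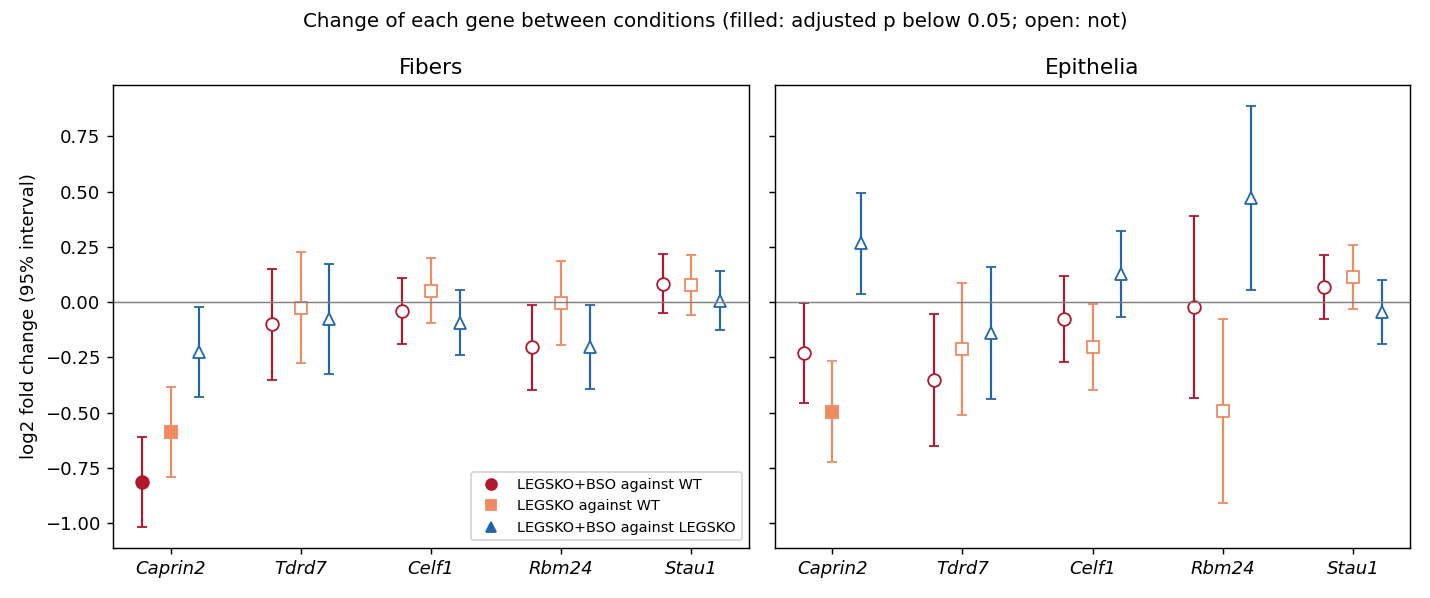
Fitted log2 fold changes of the 5 genes (y axis) with 95% intervals, in fibers (left) and epithelia (right), for LEGSKO+BSO against WT, LEGSKO against WT and LEGSKO+BSO against LEGSKO. Filled symbols had an adjusted p below 0.05: Caprin2 at -0.81 and -0.59 in fibers and at -0.50 in LEGSKO epithelia.

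Fiber marker levels moved with some members in the epithelial libraries as well. The 16 fiber markers summed to 34427, 50969, 35623 and 29266 CPM in LEGSKO+BSO epithelia, to 55013, 33989, 32207 and 43257 CPM in LEGSKO epithelia and to 56951, 49713, 49820 and 40508 CPM in WT epithelia. None of the 16 was called against WT, and their median log2 fold change was -0.39 in LEGSKO+BSO and -0.45 in LEGSKO. Over the 12 epithelial libraries, which share a tissue and differ in condition, the Pearson r with this sum on the log2 scale was 0.94 for Tdrd7, 0.67 for Caprin2, 0.47 for Rbm24, 0.36 for Celf1 and -0.15 for Stau1. Over the 12 fiber libraries the same r was 0.90 for Tdrd7 and 0.87 for Rbm24, and 0.61 and 0.64 without WT fibers 1. The 13 epithelial markers summed to 5949 to 6297 CPM in LEGSKO+BSO, 5731 to 6375 in LEGSKO and 5960 to 6215 in WT epithelia. Of these, Foxe3 was called higher and Pdgfra lower in LEGSKO+BSO, and Sfrp1 lower in LEGSKO. Corneal and conjunctival markers (7) summed to 2942 to 4045 CPM in LEGSKO+BSO, 2246 to 3180 in LEGSKO and 837 to 2086 in WT epithelia, with Krt15 and Krt19 called higher in both deficient groups and Aldh3a1 in LEGSKO+BSO. Retinal markers (12) summed to 33.0 to 150 CPM in LEGSKO+BSO, 39.2 to 365 in LEGSKO and 90.8 to 468 in WT epithelia, and no marker of these lists was at 0 in all 12 libraries. The part of these cells in the epithelial Caprin2 result was not tested.

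**Figure D3:**
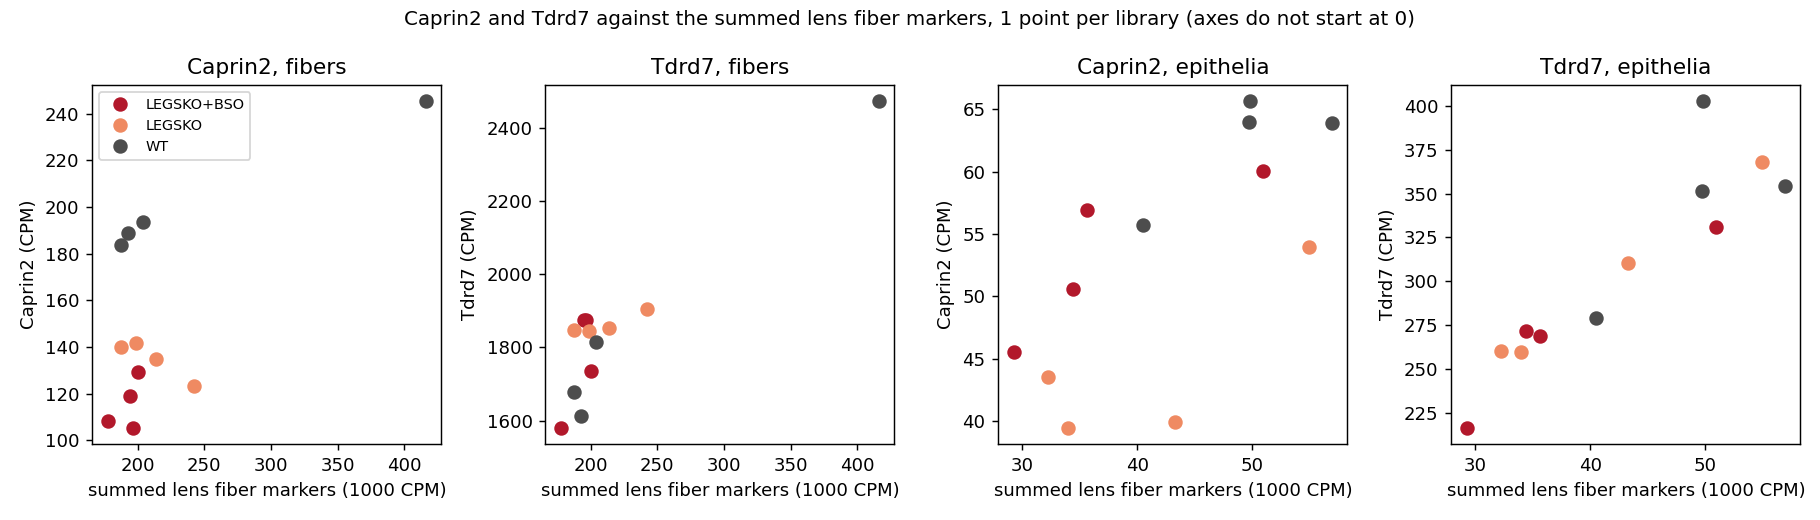
Caprin2 and Tdrd7 in CPM (y axes) against the summed CPM of 16 lens fiber markers in units of 1000 CPM (x axes), 1 point per library, fibers in the left pair of panels and epithelia in the right pair; linear axes that do not start at 0. Tdrd7 follows the marker sum in epithelia (r = 0.94), and in fibers the WT library with a marker sum of 415861 CPM stands apart in both genes.

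An interaction term in the fit of all 24 libraries asked whether a response differed between the tissues. For LEGSKO+BSO against WT, the log2 fold change of Caprin2 in fibers minus that in epithelia was -0.58 ± 0.15, which missed the threshold in edgeR's quasi-likelihood test (adjusted p = 0.07976) and passed it in DESeq2 (-0.59, adjusted p = 0.01955). Without WT fibers 1 the difference was -0.46 ± 0.13 (adjusted p = 0.1031). No member was called, beside 0.276% of all genes. For LEGSKO against WT the difference for Caprin2 was -0.11 (-0.42 to 0.21), and no member was called beside 0.103% of genes. For LEGSKO+BSO against LEGSKO the differences were -0.47 ± 0.15 for Caprin2 (adjusted p = 0.2729) and -0.66 ± 0.23 for Rbm24 (adjusted p = 0.3103), beside 0.0321% of genes called. The separate log2 fold changes with BSO were -0.23 and -0.20 for Caprin2 and Rbm24 in fibers and 0.27 and 0.47 in epithelia, and neither gene passed the threshold.

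All 5 genes were higher in fibers than in epithelia when libraries were scaled together by TMM, most of all Tdrd7. In CPM on that scale Tdrd7 was 2603 ± 203 in LEGSKO+BSO fibers and 183 ± 31.6 in LEGSKO+BSO epithelia, 2749 ± 55.1 in LEGSKO fibers and 205 ± 36.3 in LEGSKO epithelia, and 2793 ± 578 in WT fibers and 235 ± 35.8 in WT epithelia (SD, n = 4). No fiber library came near an epithelial one. Caprin2 was 170 ± 16.3 in LEGSKO+BSO fibers and 35.9 ± 4.30 in LEGSKO+BSO epithelia, 199 ± 11.3 in LEGSKO fibers and 30.2 ± 4.65 in LEGSKO epithelia, and 299 ± 41.8 in WT fibers and 42.1 ± 3.23 in WT epithelia. On that scale fibers held 14.2-fold, 13.4-fold and 11.9-fold more Tdrd7 than epithelia in LEGSKO+BSO, LEGSKO and WT. They held 4.75-fold, 6.59-fold and 7.09-fold more Caprin2, in the same order. The fold was 3.64, 5.74 and 4.13 for Rbm24, 2.29, 2.63 and 2.22 for Celf1 and 1.29, 1.23 and 1.27 for Stau1. Each was called higher in each condition, where 38.1%, 36.8% and 37% of all genes were called higher. Without WT fibers 1 the log2 fold changes in WT were 3.40 for Tdrd7, 2.70 for Caprin2, 1.90 for Rbm24, 1.16 for Celf1 and 0.37 for Stau1.

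For Stau1 and Celf1 the direction between tissues rested on the scaling. With library sizes alone the median of all genes was -1.15, -1.18 and -1.25 (log2, in LEGSKO+BSO, LEGSKO and WT), against -0.09, -0.08 and -0.09 with TMM. Stau1 then turned to -0.70, -0.81 and -0.80 and was called lower, and Celf1 was at 0.13, 0.29 and -0.00 with no call. With upper-quartile factors Stau1 was at 0.09, 0.08 and 0.10 with no call. Among called genes the share higher in fibers was 48.3%, 48.55% and 48.4% with TMM, 38.4%, 39.55% and 38.55% with upper-quartile factors, and 17.2%, 15.8% and 14.7% with library sizes alone. Relative to the median of all genes the WT values hardly moved: Stau1 was 0.43 above it with TMM and 0.45 above it with library sizes alone, and Celf1 1.24 and 1.25 above it. Tdrd7, Caprin2 and Rbm24 were called higher in fibers under all 3 scalings. The size of their folds rests on the scaling too, and the folds given above are those with TMM.

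**Figure D4:**
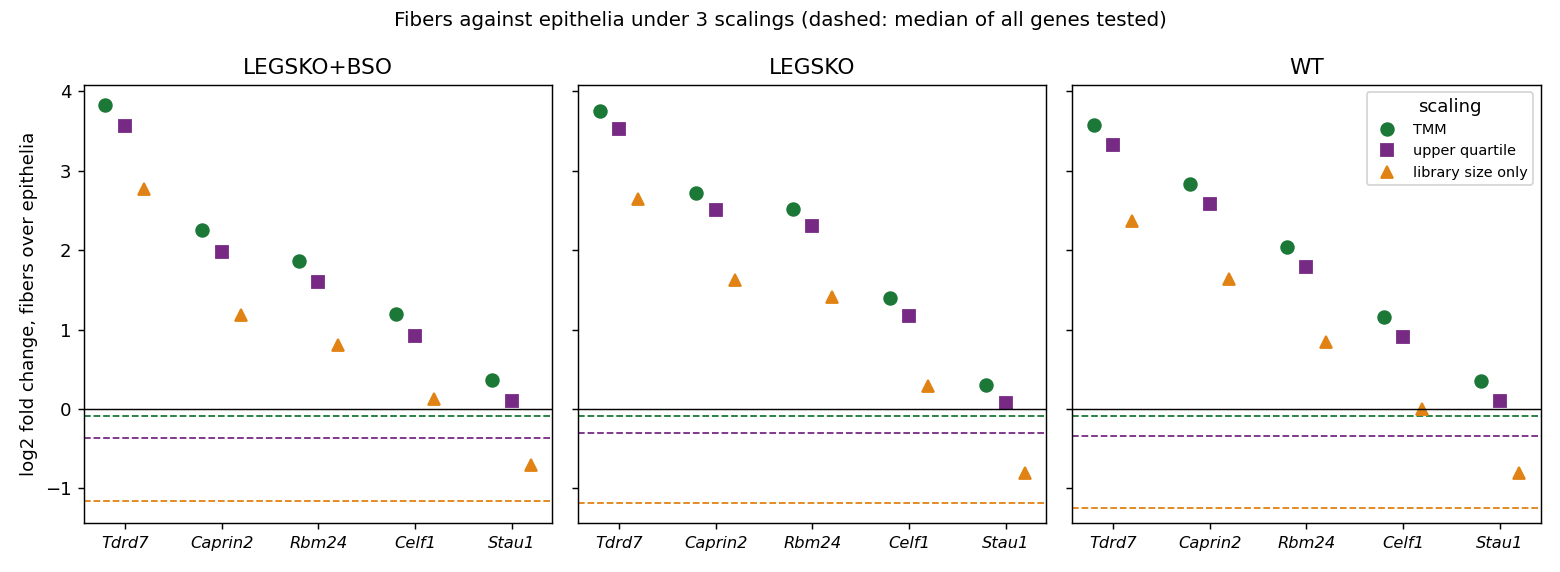
Log2 fold change of fibers over epithelia (y axis) for the 5 genes in each condition, under TMM, upper-quartile and library-size scaling. Dashed lines are the medians of all genes under the scaling of the same colour. Tdrd7 is highest in each panel, at 3.57 in WT with TMM, and Stau1 lies below 0 with library-size scaling only, at -0.80 in WT.

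Per length, Tdrd7 was the most abundant member in fibers and Celf1 in epithelia. Levels in CPM scaled within each tissue were divided by the longest protein-coding transcript in GENCODE M21. They compare members within a tissue and not a member between tissues. With the 24 libraries scaled together, Stau1 was at 17.2 CPM per kb in WT fibers and 13.5 in WT epithelia. Celf1 was then at 162 and 72.9 CPM per kb. In fibers the order was Tdrd7, Celf1, Rbm24, Caprin2 and Stau1 in all 3 conditions. In WT fibers these were at 510 ± 106, 110 ± 4.602, 70.9 ± 11.4, 54.9 ± 7.74 and 11.7 ± 0.758 CPM per kb (SD, n = 4). In LEGSKO+BSO fibers Caprin2 was at 31.2 ± 2.95 and Rbm24 at 61.5 ± 2.02 CPM per kb, and in LEGSKO fibers Caprin2 was at 36.5 ± 2.23 and Rbm24 at 70.8 ± 2.55. The ranges of Rbm24 and Caprin2 overlapped in WT fibers through WT fibers 1 alone: without it Rbm24 was at 64.3 to 67.3 and Caprin2 at 49.7 to 52.3 CPM per kb, apart as in both deficient groups. In epithelia the order was Celf1, Tdrd7, Rbm24, Stau1 and Caprin2 in all conditions, with 108 ± 7.82, 93.3 ± 13.7, 37.5 ± 2.17, 20.04 ± 1.66 and 16.9 ± 1.21 CPM per kb in WT. Celf1 and Tdrd7 overlapped in LEGSKO and in WT epithelia, and Rbm24 and Stau1 in LEGSKO epithelia. Dividing by the union of all exons left each order of means as it was but moved Caprin2. Its union is 14140 bases against 3697 for its longest coding transcript. Caprin2 was then at 14.3 ± 2.02 CPM per kb in WT fibers and Rbm24 at 62.7 ± 10.04, with no overlap. In LEGSKO+BSO fibers, however, Caprin2 at 7.45 to 9.14 CPM per kb then overlapped Stau1 at 7.08 to 7.47.

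Genes of the wider RNA granule and mRNA control machinery were called between conditions in small numbers, as were all genes at the shares of 0.0298 to 5.52% given above. Of 40 stress granule and P-body genes, all 40 tested, none was called in 5 of the 6 within-tissue comparisons. In LEGSKO+BSO against WT fibers 1 was lower, Tia1, which nucleates stress granules, at 25.4 ± 0.728 CPM in LEGSKO+BSO, 32.5 ± 1.59 in LEGSKO and 31.6 ± 4.06 in WT fibers (log2 -0.32 against WT, adjusted p = 0.03739). The list's median log2 fold change there was 0.01, beside -0.01 over all genes. Tia1 stayed called without WT fibers 1 (-0.27, adjusted p = 0.04667) and was also called lower in LEGSKO+BSO than in LEGSKO (-0.35, adjusted p = 0.04306), and Ybx3, a Y-box RNA-binding protein gene, was called higher in LEGSKO+BSO than in WT (0.32, adjusted p = 0.0143). The share of all genes called without that library was 7.9% in LEGSKO+BSO against WT, 4.34% in LEGSKO against WT and 0.683% in LEGSKO+BSO against LEGSKO fibers. Caprin1, the stress granule relative of Caprin2, was not called: it was at 275 ± 10.4 CPM in LEGSKO+BSO, 271 ± 9.12 in LEGSKO and 300 ± 9.25 in WT fibers (log2 against WT -0.13, adjusted p = 0.2313, and -0.14, adjusted p = 0.2604). Of 19 Tudor domain and germ granule genes, 11 were tested in each tissue and none was called in any within-tissue comparison, with medians against WT of -0.09 in LEGSKO+BSO fibers and -0.02 in LEGSKO fibers. When WT fibers 1 was left out Smn1, which encodes the survival motor neuron protein, was called higher in LEGSKO+BSO than in WT fibers (0.44, adjusted p = 0.04853).

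Among 42 CELF, MBNL, RBM and other regulators, 32 were tested in fibers and 39 in epithelia. Msi1, a translational regulator, was called higher in LEGSKO+BSO fibers, with 61.3 ± 1.53 CPM in LEGSKO+BSO, 55.5 ± 2.82 in LEGSKO and 50.7 ± 1.98 in WT (log2 0.28 against WT, adjusted p = 0.01738). In epithelia Rbm3, a cold-inducible RNA-binding protein gene, was called lower in LEGSKO+BSO than in LEGSKO, with 153 ± 7.01 CPM in LEGSKO+BSO and 205 ± 14.4 in LEGSKO (log2 -0.42, adjusted p = 0.0143). None of the regulators was called in the other 4 within-tissue comparisons, where 0.842 and 1.17% of all genes in epithelia and 1.64 and 0.0298% in fibers were called. The relatives Celf2, Rbm38 and Stau2 were not called against WT in either tissue. Celf2 came nearest, with 50.9 ± 0.872 CPM in LEGSKO+BSO, 53.1 ± 1.502 in LEGSKO and 59.2 ± 4.28 in WT fibers (log2 -0.22 in LEGSKO+BSO against WT, adjusted p = 0.05177), and without WT fibers 1 it was called lower in LEGSKO+BSO (-0.27, adjusted p = 0.008461) and in LEGSKO (-0.21, adjusted p = 0.04826). Msi1 stayed called without that library, and Rbfox1 and Rbm3 were then called higher in LEGSKO than in WT fibers (0.48 and 0.42, adjusted p = 0.02476 and 0.03601) and Rbm3 lower in LEGSKO+BSO than in LEGSKO (-0.50, adjusted p = 0.03422). Of 19 decay factors linked to Staufen and nonsense-mediated decay, all tested, Pnrc2, a decapping cofactor, was called higher in fibers of both deficient groups. It was at 45.8 ± 1.797 CPM in LEGSKO+BSO, 49.3 ± 1.98 in LEGSKO and 38.4 ± 3.22 in WT fibers (log2 against WT 0.25, adjusted p = 0.0458, and 0.36, adjusted p = 0.01805). Without WT fibers 1 Pnrc2 was called in LEGSKO alone (0.30, adjusted p = 0.01023, against 0.19, adjusted p = 0.05838, in LEGSKO+BSO), and Magohb, an exon junction gene, was called higher in both (0.34, adjusted p = 0.048, in LEGSKO+BSO and 0.43, adjusted p = 0.02521, in LEGSKO).

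Genes that earlier lens work tied to the members as targets or partners made up a list of 19, all tested. Dnase2b, the fiber nuclease that is lower after Celf1 deletion in mouse lens, was at 150 ± 17.9 CPM in LEGSKO+BSO, 183 ± 10.1 in LEGSKO and 207 ± 114 in WT fibers, with adjusted p of 0.2866 and 0.7953 against WT. Its log2 fold change without WT fibers 1 was -0.01 in LEGSKO+BSO (adjusted p = 0.9819) and 0.28 in LEGSKO (adjusted p = 0.1047), against -0.46 and -0.17 with it. Cdkn1b, a CELF1 target that encodes a cell cycle inhibitor, was at 82.2 ± 7.18 CPM in LEGSKO+BSO, 89.0 ± 5.63 in LEGSKO and 99.0 ± 5.59 in WT epithelia, with adjusted p of 0.08754 and 0.3633. Neither passed the test. Sox2, an RBM24 target, Hspb1, a small heat shock protein gene lower after Tdrd7 loss, and Pax6 were not called against WT in either tissue. Those called in LEGSKO+BSO against WT were Foxe3, an epithelial transcription factor gene, higher in epithelia (480 ± 40.5 CPM in LEGSKO+BSO and 244 ± 50.05 in WT, 1.97-fold, adjusted p = 0.007646), and in fibers Pitx3, another lens transcription factor gene, higher (1.44-fold, adjusted p = 0.01372), and Sparc, a matrix protein gene, lower (log2 -0.73, adjusted p = 0.009649). In LEGSKO+BSO against LEGSKO epithelia 2 of the 19 were called higher, Foxe3 (1.99-fold, adjusted p = 0.01646) and Mafg, a small MAF factor gene (1.30-fold, adjusted p = 0.03391). In LEGSKO against WT no gene of the list was called in either tissue, beside 1.64% of all genes in fibers and 0.842% in epithelia. The list's median log2 fold change in LEGSKO+BSO against WT was -0.11 in fibers and 0.02 in epithelia, beside -0.01 over all genes in each. Pitx3 and Sparc stayed called without WT fibers 1, when Crybb3, a crystallin gene, was called higher in both deficient groups of fibers, and Mafg was called lower in LEGSKO+BSO and Epha2, an ephrin receptor gene, lower in LEGSKO.

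Between tissues most genes of these lists differed, as did 76.4% of all genes in WT. In WT fibers against WT epithelia 20 of 40 stress granule and P-body genes were higher and 12 lower, with a median of 0.16 beside -0.09 over all genes. With library sizes alone, where 86.4% of all genes were called and their median was -1.25, 6 were higher and 31 lower, with a median of -0.99. Fxr1, an RNA-binding relative of Fmr1, was higher (log2 1.69), and Zfp36l2, an mRNA decay factor gene, was lower (-4.02). Of 11 Tudor genes 5 were higher, Tdrkh (2.76) and Tdrd3 (1.49) among them, and 2 lower (2 and 7 with library sizes alone), and Tdrd7 itself at 3.57 lay above each of the 11. Of 41 regulators 12 were higher, with Rbm38 at 2.64, and 21 lower, with Rbfox2 at -1.69 and a median of -0.34 (3 and 36 with library sizes alone). Of 19 decay factors 10 were higher and 5 lower (4 and 14), and of 19 linked genes 12 were higher and 4 lower (6 and 11). The relatives Caprin1 (1.30), Celf2 (0.30) and Stau2 (1.96) are set against 2.83 for Caprin2, 1.15 for Celf1 and 0.35 for Stau1, all as log2 fold changes with TMM. With library sizes alone they were 0.15 (not called, adjusted p = 0.271) for Caprin1, -0.85 for Celf2, which thus turned, and 0.79 for Stau2.

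The genes whose levels followed each member most closely over the 24 libraries were found among 9046 candidates by Pearson correlation of log2 CPM. Such correlations mostly carry the gap between tissues, and the value after centring each tissue is therefore given in brackets. For Caprin2 they were Mob3b at 0.990 (0.820), Zfand6 at 0.989 (0.780) and Pi4k2b at 0.989 (0.789). For Tdrd7 they were Dbnl at 0.998 (0.876), Bfsp2 at 0.998 (0.871) and Mocs2 at 0.998 (0.844), and Bfsp2 encodes a beaded filament protein of fiber cells. Celf1 was followed by Pakap at 0.993 (0.858), Synm at 0.993 (0.736) and Herc4 at 0.993 (0.770), and Rbm24 by Prkag2 at 0.993 (0.886), Nrcam at 0.992 (0.872) and Cap2 at 0.992 (0.863). Stau1 had looser companions, Rb1 at 0.947 (0.696), Gpn3 at 0.945 (0.693) and Tfb2m at 0.944 (0.667). Among the members themselves the centred r was highest for Celf1 and Rbm24 at 0.75, was 0.63 for Caprin2 and Rbm24, and was -0.53 for Caprin2 and Stau1. All these points share the same 24 libraries and their scaling.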

How the data were processed

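Raw counts per Entrez gene were deposited by the authors as a table of 24415 genes by 24 libraries. Groups and replicate numbers came from the sample titles. The submitters' processing notes name CASAVA 1.8, TopHat, bcl2fastq and DESeq, with no role, and the build mm10 (GRCm38). The kit, counter, annotation and strand setting: not given in the sources used here. Symbols came from a RefSeq gene table of that build, which matched 24334 genes. The remaining 81 held 0.914% of counts and stayed in the tests.

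Tests on these counts used edgeR 4.0.16 (R 4.3.3): TMM scaling, filterByExpr (minimum count 10, minimum total 15), quasi-likelihood F tests, two-sided, and Benjamini-Hochberg adjustment over all genes tested with a threshold of 0.05. Each tissue was fitted with its 12 libraries in 3 groups (15089 genes in epithelia, 13436 in fibers). Tissues were compared, and interactions tested, in a fit of all 24 libraries (15560 genes). A member or gene was called where its adjusted p was below 0.05. CPM used the scaled library sizes. The scripts were tested on simulated data. Replicates of a group differed by 5.43 to 369 chi-square units per degree of freedom over 36 pairs, so none was a duplicate.

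The members and lists were chosen with earlier results of these data known. Named list genes were the 2 with the smallest adjusted p in each direction, together with preset relatives and linked genes. List genes named as called without WT fibers 1 were added after their values were seen. The companions were the 3 genes of highest correlation with an average log2 CPM of at least 3. Marker genes named beside results, Gclc and Gm52728 were added after their values were seen. Alternatives were RLE and upper-quartile factors, DESeq2 1.42.0, no filter, crystallins left out, a replicate block, each library left out, a common fit, a fit of 8 libraries and library-size scaling. The last was added after the data were seen, as were library sizes for the lists between tissues, the lists without WT fibers 1, and the exon union.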

Additional observations from a re-analysis of the deposited data

Results flagged for a closer look

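In 4 of 30 groups of 4 libraries, 1 library lay far from the other 3 in the level of a member, by a gap that chance gives in about 1 of 20 groups. WT fibers 1 held 245 CPM of Caprin2, against 184 to 193 CPM in the other WT fibers, and 271 CPM of Rbm24, against 198 to 208 CPM. This is the library with crystallins at 50.1% of counts. LEGSKO fibers 2 held 1905 CPM of Tdrd7, against 1845 to 1853 CPM in the other LEGSKO fibers, and 823 CPM of Celf1, against 911 to 929 CPM. Its crystallin share, 34.3%, was the highest among LEGSKO fibers. The part of the crystallin share in these values was not tested.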

How the results depend on the processing

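Of 1545 values of members under the alternatives, 1526 were classed as unchanged, 14 lost and 1 gained a call, and 4 reversed. Unchanged meant the same side of the threshold and, where either fit called the gene, the same direction. Sign changes with no call in either fit counted as unchanged, as for Tdrd7 in deficient fibers without WT fibers 1. The reversals were between tissues with library-size scaling, Stau1 at -0.70, -0.81 and -0.80 in LEGSKO+BSO, LEGSKO and WT and Celf1 at -0.0018 in WT. That scaling also took away the Caprin2 call in LEGSKO against WT fibers (-0.48, adjusted p = 0.1335, 0 members called) and kept the one in LEGSKO+BSO (-0.63, adjusted p = 0.01366). For list genes, Celf2 between tissues in WT turned to -0.85 with that scaling. In fibers it moved the share of calls that were higher to 78.03% in LEGSKO+BSO and 89.33% in LEGSKO against WT, against 55.26% and 66.82% with TMM. The replicate numbers share no stated source and were not taken as pairs. Deviations of same-numbered libraries correlated at -0.27 to 0.27 in epithelia, -0.17 to 0.16 in fibers and -0.09 to 0.28 between tissues, where 3 of 12 same-numbered pairs and 0 of 36 others were above 0.1. Between tissues 6 of 12 fiber libraries and 7 of 12 epithelial libraries correlated best with their own number, a hint from the data and not the design. Whether same-numbered libraries of the tissues came from the same lens or animal cannot be settled from these correlations. With the number as a replicate block Caprin2 stayed called in LEGSKO epithelia (adjusted p = 0.03827), LEGSKO fibers (0.01186) and LEGSKO+BSO fibers (0.001164), every member call between tissues held, and Caprin2 stayed uncalled in the interaction for LEGSKO+BSO against WT (-0.57, adjusted p = 0.0734). Genes called in LEGSKO against WT epithelia were 127, and 446 with DESeq2; in LEGSKO+BSO against WT 177, and 567 with DESeq2. In LEGSKO+BSO against LEGSKO epithelia they were 109, 678 with DESeq2, 46 with the replicate block, 64 with library sizes and 250 in the common fit. In fibers LEGSKO against WT called 220, 503 with DESeq2, 143 with the block and 75 with library sizes, and LEGSKO+BSO against WT 742, 1140 with DESeq2 and 173 with library sizes. LEGSKO+BSO against LEGSKO fibers called 4, 72 with DESeq2, 14 with no filter, 2 with the block and 7 in the common fit. The interaction for LEGSKO against WT called 16 genes, 9 with upper-quartile factors, 78 with DESeq2 and 4 with library sizes. That for LEGSKO+BSO against WT called 43, 302 with DESeq2 (1 member, Caprin2) and 13 with library sizes. That for LEGSKO+BSO against LEGSKO called 5, 61 with DESeq2, 2 with RLE or upper-quartile factors, 1 with no filter, and 0 with the block or library sizes. Leaving out 1 library gave 40 to 183, 41 to 324 and 0 to 442 genes in the 3 epithelial comparisons, 61 to 591, 285 to 1075 and 1 to 93 in the 3 fiber comparisons and 4 to 46, 12 to 94 and 1 to 14 in the 3 interactions, in the order given above. The members called in LEGSKO against WT epithelia were then 0 to 1. The causes were not tested. The smallest count of a member was 683.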
